A study of Mus musculus with 32 samples.

Results

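The T and NK cell effector genes described here are 37 genes, of 20145 named on the arrays. They code for the T cell receptor and its coreceptors (7 genes), adhesion and costimulation receptors (8), the first signalling proteins behind the receptor (3), NK cell receptors (6), transcription factors with the interleukin-2 receptor beta chain (4), and killing and secreted products (9). They are a list of gene names, put together with earlier results of these data known. Each gene is read from the probe of highest mean over the 32 arrays. 4T1-Luc, one luciferase-marked line derived from a mouse mammary carcinoma, was grown as tumours in female Balb/C mice of 8 weeks of age, a strain with its own T, B and NK cells. After 1 week the mice were given either 40 mg/kg sunitinib, which inhibits VEGF, PDGF and related receptor tyrosine kinases, or the vehicle of the treatment. Digested tumours were split with beads against PECAM-1 into an EC (endothelial) fraction and the remaining cells, called bulk. PECAM-1 is also carried by platelets and many leukocytes.

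At 1300 mm3 there are 4 sunitinib mice labelled sensitive to the drug up to day 8, 4 sunitinib mice labelled resistant up to day 8, and 4 vehicle mice, each with an EC and a bulk array. Smaller tumours, without an EC array, were measured from 2 sunitinib and 2 vehicle mice at day 9, and from 2 sunitinib and 2 vehicle mice at 600 mm3. All of these sunitinib mice carry the sensitive label. The titles of the smaller tumours name no fraction, so whether they were split with the beads cannot be told from the titles. They are called bulk below. All groups share the tumour line, the strain and the sex, and each array holds 1 tumour or tumour fraction of 1 mouse, made from 50 ng of RNA.

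CD8 T cells and NK cells kill target cells by releasing perforin, which opens membranes, and granzymes, proteases that enter through them. T cells recognise peptides on MHC molecules through the T cell receptor, whose CD3 and zeta chains pass the signal to the kinases Lck and Zap70, while NK cells sum signals from activating and inhibitory receptors. Both cell types secrete interferon gamma under the factors T-bet and Eomes, and tumour cells and macrophages answer it with more antigen presentation.

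Levels are log2 signals relative to the 75th percentile of all probes on the same array, so that a level of 0 is as bright as that percentile. Probes differ in brightness, and levels are compared only between arrays for one gene. In all, 29 of the 37 genes were well above background on all 32 arrays, as the scanner software calls it for each spot. Klrk1 and Cd27 were so on 31 arrays, Klrg1 on 28, Cd247 and Ncr1 on 26, Cd226 and Klrb1c on 23. Cd40lg, the ligand by which helper T cells activate B cells and dendritic cells, was well above background on 4 arrays, all EC, and is close to unmeasured. The CD3 chains, both CD8 chains, Klrd1 and Eomes were thus detected in every sample, as the T and NK cell label requires, while the NK receptors Ncr1 and Klrb1c were faint.

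Some arrays stand apart. The 8 arrays of the resistant mice fill 1 slide that holds no other group. Slide and resistance therefore cannot be told apart. On its EC arrays only 46.1 to 52.8% of probes were well above background, against 79.9 to 86.4% on the EC arrays of sensitive and vehicle mice. The dimmest probe called well above background lay at −4.94 to −4.08 there, and at −3.03 on the bulk array of resistant mouse 2. Within the other slides, sunitinib arrays hold the first column and vehicle arrays the second, so the column and the drug cannot be told apart either. In bulk of vehicle mouse 3 the 8 endothelial markers averaged 1.32, against −2.57, −2.25 and −2.18 in the bulk of the other vehicle mice. Only in resistant mice do EC and bulk arrays lie on one slide.

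**Figure D1:**
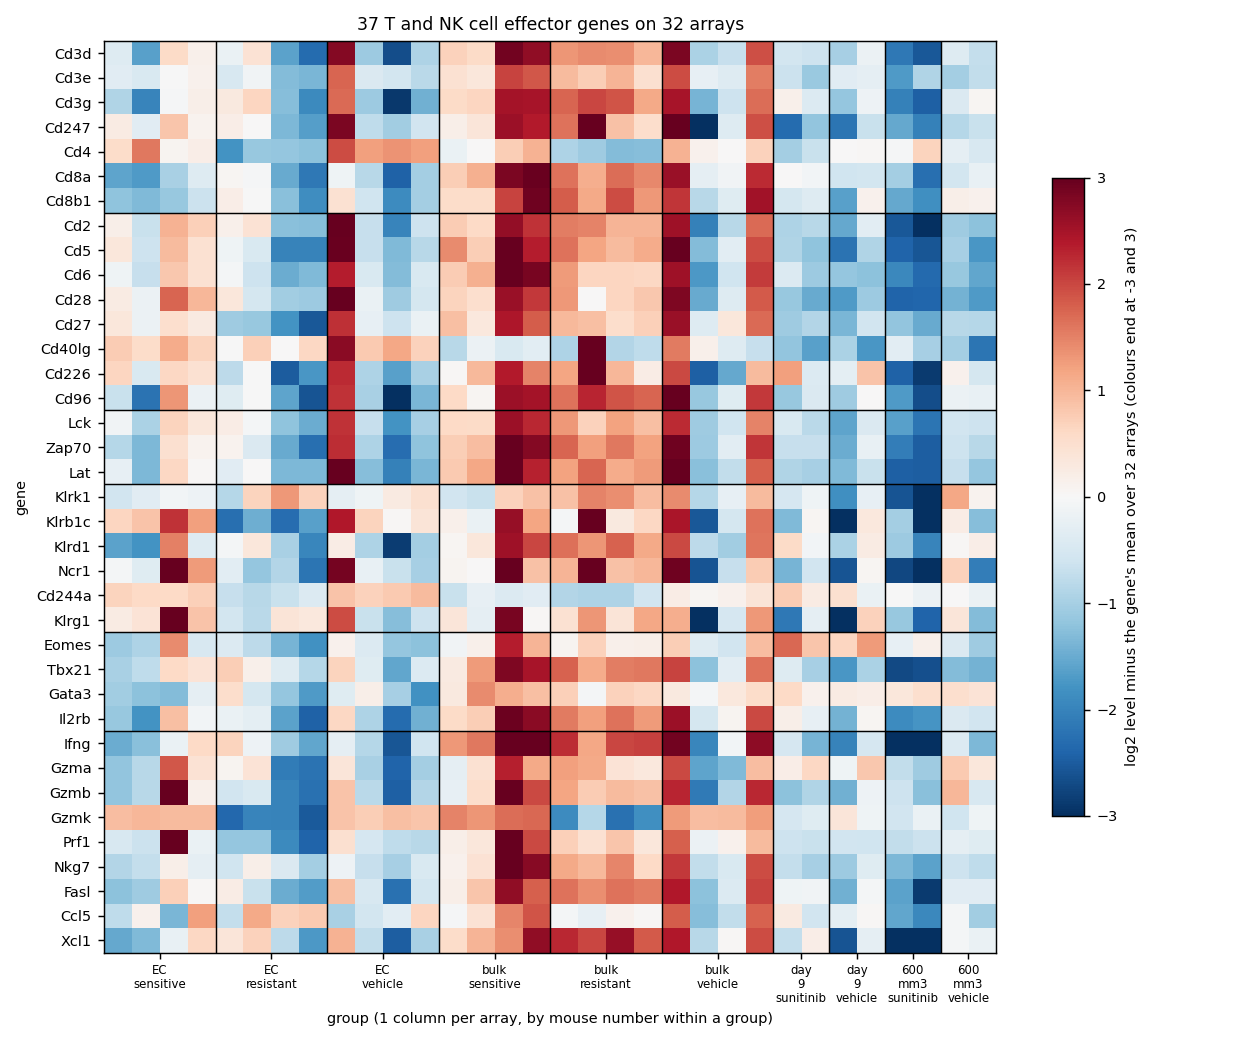
Heatmap of the 37 genes (rows, grouped by role) on 32 arrays (columns, by group and then mouse number), coloured by the log2 level minus the gene's own mean. Whole columns are red or blue: EC vehicle mouse 2, bulk sensitive mouse 4 and bulk vehicle mouse 2 are red for most genes, and bulk vehicle mouse 3 and both sunitinib tumours of 600 mm3 are blue.

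Most of the genes moved together from mouse to mouse, and mice of one group differed widely. The mean over the 37 genes was 0.03, 0.21, 2.08 and 1.56 in bulk of sensitive mice 2 to 5, and 0.66, 0.91, 0.56 and 0.40 in bulk of resistant mice 1 to 4. In bulk of vehicle mice 2 to 5 it was 1.81, −1.47, −0.72 and 1.21, the widest range of the 3 groups. Bulk vehicle mouse 2 was the highest of its group for 31 of 36 genes compared and mouse 3 the lowest for 32 of 36, where 24.7% and 30.3% of all genes had that rank. Bulk sensitive mouse 4 was the highest for 27 of 36 genes (20% of all genes).

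In the EC fraction the mean was −0.754, −0.999, 0.535 and −0.0392 in sensitive mice, and −0.65, −0.57, −1.51 and −1.85 in resistant mice. In vehicle mice it was 1.07, −0.78, −1.65 and −0.92, and the 3 groups overlap. EC vehicle mouse 2 was the highest of its group for 32 of 37 genes, against 21.4% of all genes, and EC sensitive mouse 4 for 25 of 37, against 28.9%. B and plasma cell markers were also highest in vehicle mouse 2 among the EC vehicle arrays (mean −0.92, against −3.60 to −2.93 in the others). The part of other leukocytes in these differences was not tested. In these bulk and bead-selected samples, fewer T or NK cells and less RNA per cell cannot be told apart.

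**Figure D2:**
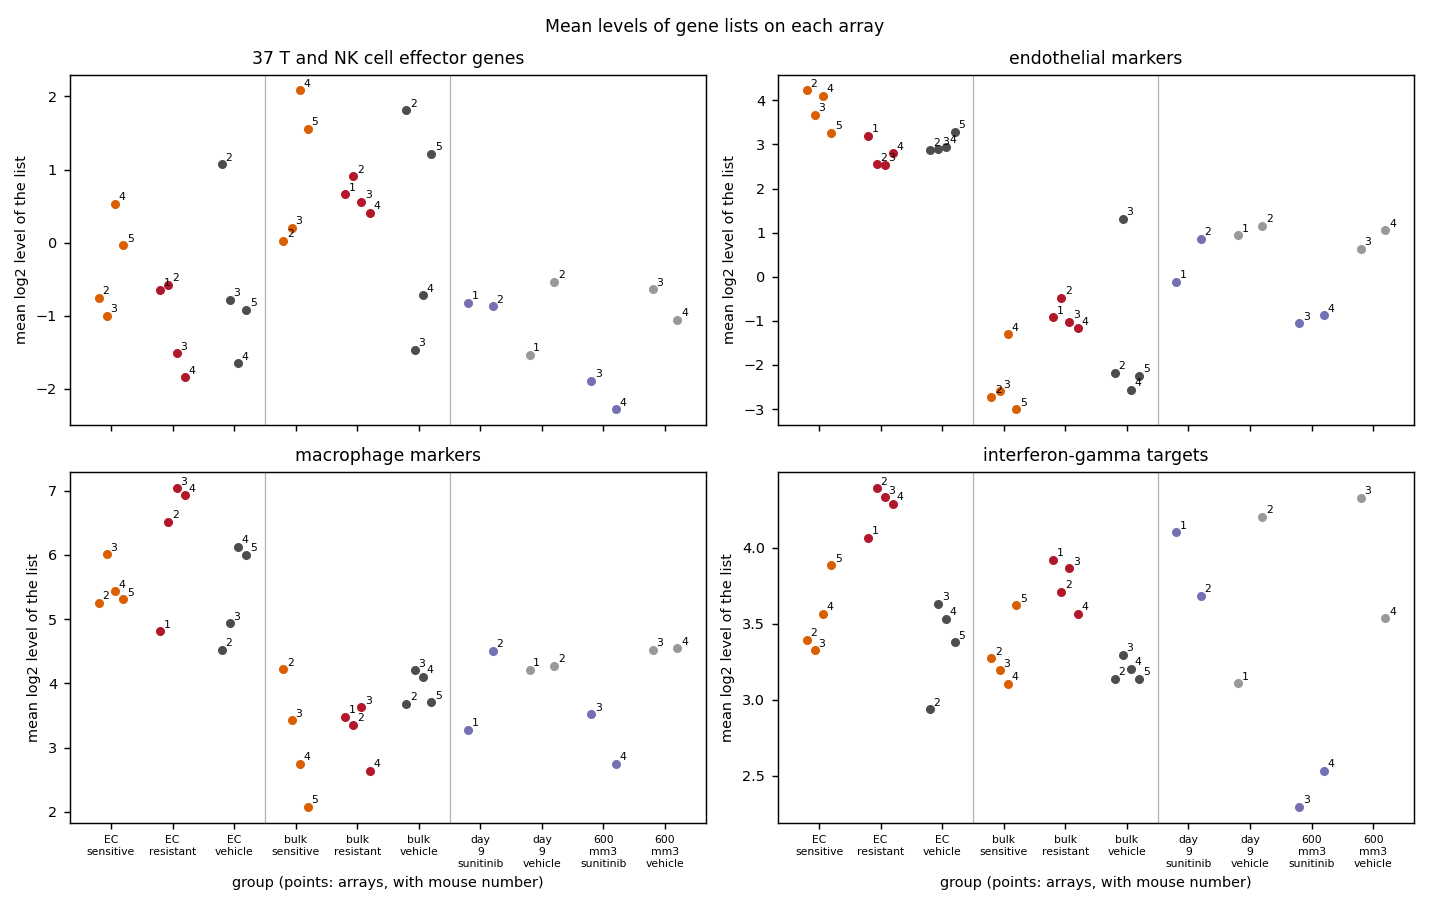
Mean log2 level of 4 gene lists on each array (points, with mouse numbers), by group. The 37 genes range from −2.28 to 2.08 and are lower in EC than in bulk for most mice, the endothelial and macrophage markers are higher in EC, and the interferon-gamma targets are lowest in the sunitinib tumours of 600 mm3.

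The EC fraction was compared with bulk of the same mouse to see where T and NK cell RNA was the larger share. Levels are relative to each array, so they do not say which fraction held most of this RNA. Most genes had lower levels in EC: 29 of the 37 were lower over the 12 mice, where 29.7% of 18280 genes tested were called lower. Only 1 was higher, where 22.3% were called higher (limma, adjusted p under 0.05). Outside the resistant mice the 2 fractions lie on different slides. The median difference, EC minus bulk, was −1.39 over the 37 genes and −0.06 over all genes. Between 30 and 35 of the 37 genes were lower in EC in each of 11 mice, where 47.4 to 56.6% of all genes were. Vehicle mouse 3 was the exception, with 9 of 37 lower (49.4% of all genes) and a median difference of 0.61. Its bulk is the array with the raised endothelial markers. The markers moved with the beads: the endothelial list was higher in EC for 8 of 8 genes (median 4.59), the macrophage list for 7 of 7 (median 2.21), and the tumour epithelial list was lower for 8 of 8 (median −1.53).

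Among the receptor genes, 6 of 7 were lower in EC and Cd4 was not. Cd8a, the alpha chain of the CD8 coreceptor of cytotoxic T cells, had levels of −1.84, −1.95, −1.23 and −0.64 in EC of sensitive mice, against 0.48, 0.80, 2.57 and 2.70 in their bulk. It had −0.20, −0.29, −1.77 and −2.41 in EC of resistant mice, against 1.36, 0.83, 1.42 and 1.19 in their bulk. It had −0.40, −1.09, −2.69 and −1.29 in EC of vehicle mice, against 2.32, −0.54, −0.37 and 1.97 in their bulk. Cd8a was lower in EC in 12 of 12 mice, by 2.55 on the log2 scale (SE 0.28), 5.84-fold (limma, adjusted p = 3.12e-05).

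Cd3d, a signalling chain of the T cell receptor complex, was lower in 12 of 12 mice and 3.55-fold on average (log2 difference −1.83, SE 0.29, adjusted p = 0.000342). Cd8b1, the CD8 beta chain, gave −2.17, Cd3g −1.98, Cd3e −1.23 and the zeta chain Cd247 −1.21. Cd4 is the coreceptor of helper T cells and is also transcribed by some macrophages and dendritic cells. Its difference was 0.33 (SE 0.20, adjusted p = 0.19), and it was lower in EC in 4 of 12 mice, so that its direction differed between mice.

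The kinases Lck (−1.34) and Zap70 (−2.07) and their adaptor Lat (−1.83) were all lower in EC, Lat in 12 of 12 mice. Of the adhesion and costimulation receptors, 7 of 8 were lower, among them the NK and T cell adhesion receptor Cd96 (−2.20), the inhibitory scavenger-type receptor Cd5 (−1.64), the costimulator Cd27 (−1.44) and the costimulator Cd28 (−0.78). Cd40lg, faint in both fractions, did not pass.

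Of the 6 NK receptors, 1 was lower, 1 was higher and 4 did not pass. Klrd1, the CD94 chain of the CD94/NKG2 receptors, was lower in 12 of 12 mice (−1.84, SE 0.24, adjusted p = 9.09e-05). Klrk1, the activating receptor NKG2D, gave −0.44, Ncr1, the activating receptor NKp46, −0.89, Klrb1c, the NK1.1 antigen of some strains, −0.66, and the inhibitory receptor Klrg1 0.02, none of which passed. With the background subtraction used here, both Klrb1c and the activating receptor Cd226 were lower in EC of resistant mice. Approximate bounds on the fold were 2.01 for Klrb1c and 2.36 for Cd226. No resistant EC array had either well above background. Both bounds lean on bulk of resistant mouse 2, the array with the raised detection floor. Klrb1c had −1.44 there, against −4.54, −4.19 and −3.86 in the other resistant bulk arrays, and Cd226 had −1.50, against −3.47, −3.66 and −4.45. Neither passed with another background correction, normexp (Klrb1c −0.0876, adjusted p = 0.745; Cd226 −0.38, adjusted p = 0.239). Ncr1, well above background on 1 of 4 resistant EC arrays, was lower there (−2.83, adjusted p = 0.00803), by 0.76 with normexp. Its EC minus bulk difference was −5.06 in resistant mouse 2, against −1.33, −1.76 and −3.18 in resistant mice 1, 3 and 4. Such bounds are set by the dimmest probe that still counts as above background on the arrays of the lower group. They hold only for the background subtraction used. They are also approximate, since a probe can lie above that level without being called well above background.

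Cd244a, a receptor of NK cells that is also found on some myeloid and mast cells, was the one gene higher in EC. Its levels were 1.23, 1.16, 1.15 and 1.27 in EC of sensitive mice, against −0.11, 0.31, 0.15 and 0.21 in their bulk. They were −0.12, −0.28, −0.11 and 0.14 in EC of resistant mice, against −0.31, −0.37, −0.36 and −0.02 in their bulk. They were 1.408, 1.245, 1.350 and 1.4996 in EC of vehicle mice, against 0.77, 0.62, 0.69 and 0.95 in their bulk. The difference was 0.62 (SE 0.07, 1.53-fold, adjusted p = 2.72e-05) and positive in 12 of 12 mice, but on the one slide that holds both fractions, that of the resistant mice, it was 0.17 and did not pass (adjusted p = 0.526). Macrophage and mast cell markers are higher in EC too, and their part in this difference was not tested.

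The transcription factors Tbx21 (T-bet, −1.48), Eomes (−1.11) and Gata3 (−1.37) and the receptor chain Il2rb (−2.29) were lower in EC. Gata3 is also a factor of the mammary epithelium, whose markers were lower in EC as well, and the part of tumour cells in it was not tested. Of the effectors, 8 of 9 were lower. Ifng, interferon gamma, was lower in 11 of 12 mice and 5.69-fold on average (−2.51, SE 0.37, adjusted p = 0.00022). Its highest EC level was 1.93, in resistant mouse 1, and its highest bulk level 5.27, in sensitive mouse 4.

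The lymphotactin gene Xcl1 gave −2.08, the death ligand Fasl −1.84, the granule protein Nkg7 −1.59, granzyme B (Gzmb) −1.51, perforin (Prf1) −1.47, granzyme A (Gzma) −1.20 and granzyme K (Gzmk) −0.46. Prf1 was lower in 12 of 12 mice (SE 0.18, adjusted p = 5.82e-05) and Gzmk in 11 of 12. Ccl5, a chemokine that macrophages and endothelial cells also make, did not pass (−0.44, adjusted p = 0.296).

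**Figure D3:**
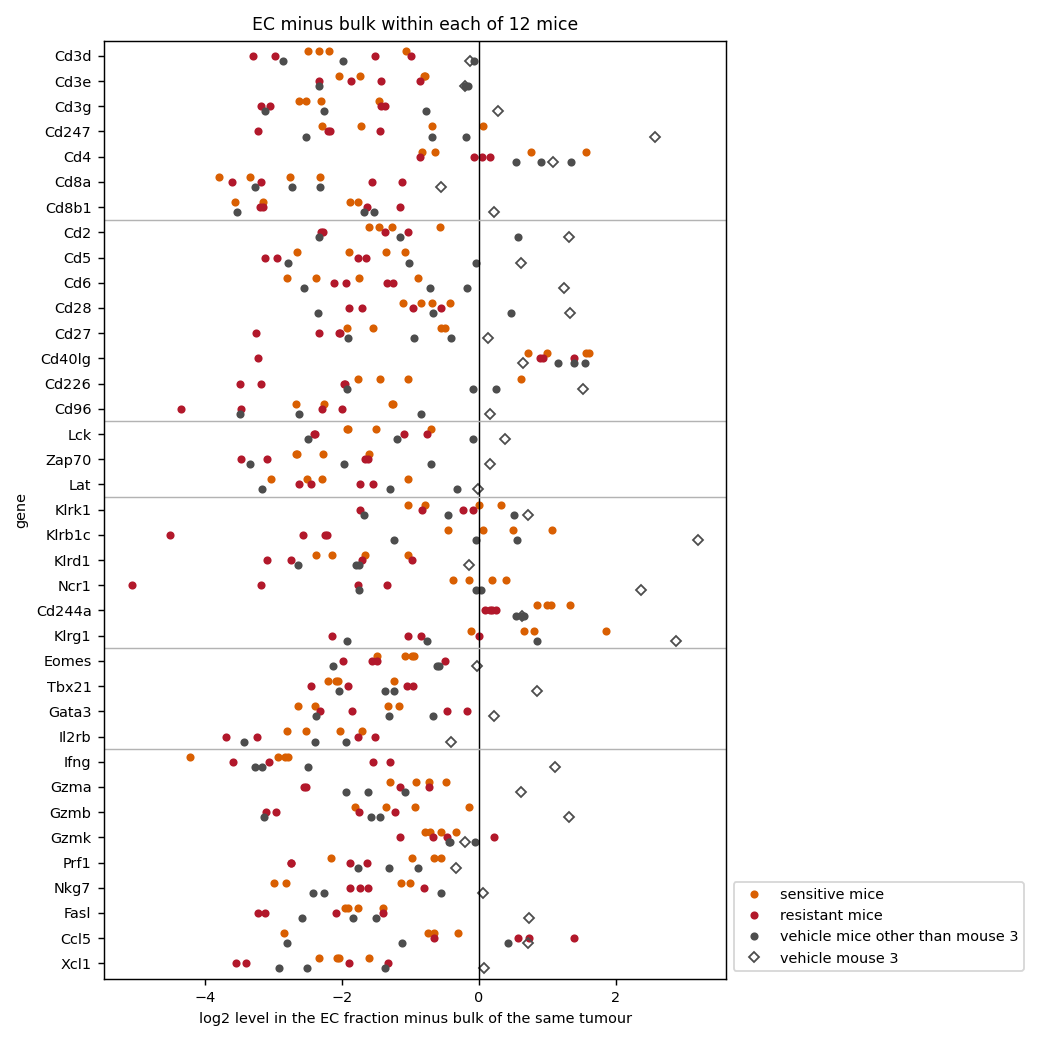
Log2 level in the EC fraction minus bulk of the same tumour for each gene (rows, by role) and each of 12 mice (points, coloured by treatment, diamonds for vehicle mouse 3). Points lie left of 0 for most genes and mice, Cd244a lies right of 0 in 12 of 12 mice, and the diamonds lie right of 0 for most genes.

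Within each treatment the direction was the same, with fewer calls in vehicle mice. In sensitive mice 23 of 37 genes were lower and 1 higher, against 21.4% and 14.4% of all genes. In resistant mice, both fractions of which share a slide, 28 were lower and 0 higher, against 15.9% and 13.3%. In vehicle mice 9 were lower and 1 higher, against 15.4% and 11.8%, and without vehicle mouse 3 the count called was 18. Leaving out resistant mouse 4 left 17 called in resistant mice, and leaving out vehicle mouse 5 left 2 called in vehicle mice. The test of the difference itself, EC minus bulk, called 0 of 37 genes for the sensitive effect (0 of 18280 genes; 1 of these genes and 875 genes at unadjusted p under 0.05, limma) and 0 for the resistant effect (9 of these genes and 3215 genes at unadjusted p under 0.05; 0.0109% of genes higher and 0.263% lower).

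Of all genes, 29.7% were lower and 22.3% higher in EC, which is the background for the other genes of these pathways. Among 21 further T cell receptor signalling genes 11 were lower and 5 higher in EC, with the exchange factor Vav1, which myeloid cells also use, at 1.32 (SE 0.22). Among 23 further NK receptor and adaptor genes 7 were lower and 6 higher, with Klre1 at −2.19 and Klrc1 at −2.004. The 13 further granule genes gave 4 lower, with the lymphocyte protease cathepsin W (Ctsw) at −2.12, and 3 higher. Interferon-gamma targets ran the other way, with 10 of 21 higher and 4 lower: Cd274, the checkpoint ligand PD-L1, gave 1.499 (SE 0.161) and the T cell attracting chemokine Cxcl10 1.57 (SE 0.20). The shares of the NK and granule lists lie near the background.

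The promoters of Prf1, Gzmb and Nkg7 are shown because these killing genes fell together in EC. Each is 300 bases around the annotated start, read 5′ to 3′ on the gene's strand, from RefSeq on GRCm38.p6. Capitals mark short motifs on either strand: TGTGGT, the core that RUNX factors bind, CAGGAAG, an ETS-type element, and AGGTGTGA, a T-box element as T-bet and Eomes bind.
Prf1, chr10:61297586-61297885, plus strand: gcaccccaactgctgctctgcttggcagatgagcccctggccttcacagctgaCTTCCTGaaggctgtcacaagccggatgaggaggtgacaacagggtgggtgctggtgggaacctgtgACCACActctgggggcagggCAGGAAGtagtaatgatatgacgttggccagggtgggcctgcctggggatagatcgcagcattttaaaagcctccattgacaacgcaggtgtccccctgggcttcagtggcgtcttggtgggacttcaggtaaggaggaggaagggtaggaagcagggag
Gzmb, chr14:56262285-56262584, minus strand: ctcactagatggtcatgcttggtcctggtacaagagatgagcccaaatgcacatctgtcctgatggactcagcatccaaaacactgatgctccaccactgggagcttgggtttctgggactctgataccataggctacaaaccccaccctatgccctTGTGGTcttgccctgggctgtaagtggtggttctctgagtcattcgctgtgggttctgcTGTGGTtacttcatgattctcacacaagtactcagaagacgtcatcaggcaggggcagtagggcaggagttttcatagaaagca
Nkg7, chr7:43436888-43437187, plus strand: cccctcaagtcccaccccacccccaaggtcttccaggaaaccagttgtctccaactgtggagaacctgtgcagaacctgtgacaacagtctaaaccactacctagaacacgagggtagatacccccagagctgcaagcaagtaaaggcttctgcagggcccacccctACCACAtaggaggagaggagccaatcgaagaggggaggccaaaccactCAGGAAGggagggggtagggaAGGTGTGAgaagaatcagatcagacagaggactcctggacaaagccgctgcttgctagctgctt
Promoters were at hand for 26 of the 37 genes. The RUNX letters occur in 13 of the 30 promoters of these genes (12 of the 26 genes) and in 16.8% of all 32851 promoters of this length. The ETS letters occur in 12 of 30 promoters (11 of 26 genes) and in 13.3% of all. The T-box letters occur in 1 of 30, that of Nkg7, and in 1.28% of all. A match describes the letters of this window and is not a measured binding site.

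The resistant mice were compared with vehicle mice to see which genes go with resistance to the drug. In EC 6 of 37 genes were lower and 0 higher, where 27.1% of 17946 genes were called lower and 19.2% higher, so the share of these genes called was below the background. The 6 include Cd40lg and Klrb1c, which no resistant EC array had well above background. The median was −0.43 over the 37 genes and 0.03 over all genes. In bulk 3 of 36 genes were lower and 0 higher, against 5.92% and 2.1% of 16969 genes, with a median of 0.54 against 0.03. Gzmk, Cd4 and Cd244a were lower in both fractions. The CD3 chains, the CD8 chains, Ifng, Gzma, Gzmb, Nkg7, Tbx21 and Il2rb did not pass in either.

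Gzmk, a granzyme of memory-type CD8 T cells, had levels of −3.71, −3.34, −3.35 and −3.87 in EC of resistant mice, against −0.49, −0.62, −0.46 and −0.53 in EC of vehicle mice. In bulk it had −3.24, −2.20, −3.58 and −3.20 in resistant mice, against −0.06, −0.42, −0.41 and −0.11 in vehicle mice. The groups do not overlap. Among all genes, every resistant array lay below every vehicle array for 24.3% in EC and 7.16% in bulk. The differences in Gzmk were −3.04 in EC (SE 0.14, 8.24-fold lower, adjusted p = 2.61e-08) and −2.81 in bulk (SE 0.26, 6.99-fold lower, adjusted p = 0.000112). On the EC arrays of sensitive and vehicle mice Gzmk stayed between −0.62 and −0.34, while Cd3d ranged from −1.14 to 4.29 on the same arrays. With normexp, another background correction, the EC difference was −1.74 and still passed. The part of the slide in this difference cannot be told apart from resistance.

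Cd4 had levels of 0.31, 0.95, 0.95 and 0.86 in EC of resistant mice, against 4.05, 3.32, 3.44 and 3.33 in EC of vehicle mice. In bulk it had 1.16, 1.03, 0.78 and 0.81 in resistant mice, against 3.14, 2.23, 2.10 and 2.79 in vehicle mice. The groups do not overlap in either fraction, as for 24.3% of all genes that lay lower in EC and 7.16% in bulk. The difference in Cd4 was −2.77 in EC (SE 0.31, 6.82-fold lower, adjusted p = 1.5e-05) and −1.62 in bulk (SE 0.31, 3.07-fold lower, adjusted p = 0.0092). A second Cd4 probe gave −3.49 in EC (adjusted p = 7.35e-08), and in bulk −1.42, which did not pass (adjusted p = 0.34). The mean of both probes did not pass in bulk (−1.52, adjusted p = 0.0974).

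Cd244a was lower by 1.47 on the log2 scale in EC (SE 0.13, 2.77-fold, adjusted p = 1.49e-06), and by 1.02 in bulk (SE 0.15, 2.03-fold, adjusted p = 0.00192), with levels as given above for the fractions. No resistant array overlaps a vehicle array in either fraction.

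A further 3 genes passed in EC, each near the detection limit in EC of resistant mice. Cd27 and Klrb1c did not pass in bulk, where Cd40lg was not tested, and the test of the difference between fractions called none of the 3. Cd27, the costimulator, had −3.19, −3.25, −3.93 and −4.66 in EC of resistant mice, against 0.06, −2.38, −2.74 and −2.33 in EC of vehicle mice (difference −1.91, SE 0.54, adjusted p = 0.0125). It was well above background on 3 of 4 resistant EC arrays, so no fold is given. With the background subtraction used here, Klrb1c was lower (limma, adjusted p = 0.000526), with an approximate bound of 1.87-fold, or 0.90 on the log2 scale. Its differences with normexp and with the authors' values, given below, are smaller than this bound. Cd40lg passed at −1.01 (adjusted p = 0.049), but no resistant EC array had it well above background, so no fold is given. It entered the test only through EC arrays of sensitive and vehicle mice. Its mean in EC of vehicle mice, −5.29, lay below the dimmest probe called well above background on each resistant EC array. A decrease of Cd40lg can therefore not be read from these arrays, and its sign turned with normexp (0.41) and quantile normalization (0.31). With another background correction (normexp) Cd27 fell by 0.72 and Klrb1c by 0.06, and neither passed (adjusted p = 0.176 and 0.885), and with the authors' deposited values neither passed either (−0.71 and −0.66). A second Cd27 probe gave −0.73 and did not pass (adjusted p = 0.488). The T cell surface receptor Cd6 did not pass with its brighter probe (−0.91) and passed with its other probe (−2.91, adjusted p = 0.000137).

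**Figure D4:**
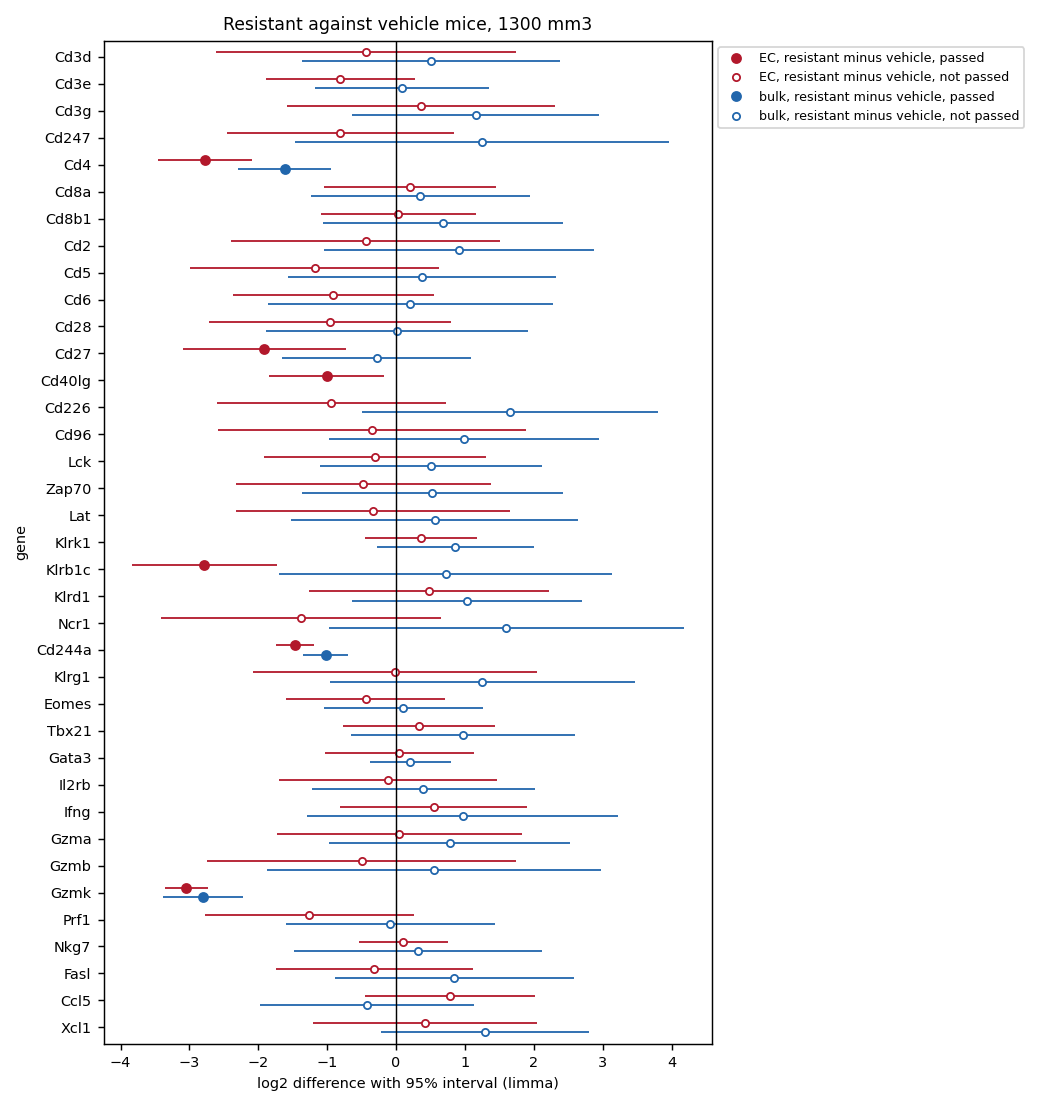
Log2 difference, resistant minus vehicle mice at 1300 mm3, with limma's 95% interval for each gene in EC (red) and bulk (blue), filled where the adjusted p is under 0.05. Cd4, Cd244a and Gzmk lie below 0 in both fractions with short intervals, while the intervals of the CD3 and CD8 chains, Ifng and Gzmb span 0.

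Set against sensitive mice, EC of resistant mice had 6 of 37 genes lower and 0 higher, against 28.8% and 17.2% of all genes, with a median of −0.65 against 0.03. Gzmk (−3.18, 9.05-fold lower), Cd4 (−1.93, 3.82-fold) and Cd244a (−1.30, 2.46-fold) were among them, with Cd27 (−1.87) and Klrb1c. With the background subtraction used here the approximate bound for Klrb1c was 2.38-fold lower. That is a bound of 1.25 on the log2 scale, which the alternatives given next do not keep. With normexp the Gzmk difference was −1.88 and still passed, while Cd27 (−0.62, adjusted p = 0.24) and Klrb1c (−0.26, adjusted p = 0.481) did not, nor did these with the authors' deposited values (−0.54 and −0.87) or with means over probes. The sixth was Prf1, with −0.48, −0.49, −1.23 and −1.73 in EC of resistant mice, against 0.21, 0.05, 3.68 and 0.49 in EC of sensitive mice. The groups do not overlap, as for 25.4% of all genes that lay lower in EC of resistant mice. Sensitive mouse 4 stands far above the rest: the difference was −2.09 (SE 0.70, 4.26-fold lower, adjusted p = 0.0278). It was −1.23 without sensitive mouse 4, and it did not pass without resistant mouse 3 or 4 (adjusted p = 0.0622 and 0.07) or with quantile normalization (adjusted p = 0.0537). A second Cd27 probe gave −0.70 and did not pass (limma, adjusted p = 0.502). Other probes of Cd6 (−2.96, adjusted p = 0.000119) and Eomes (−1.45, adjusted p = 0.0122) passed, while the brighter probes of these genes did not. All 8 endothelial markers were lower in EC of resistant mice in this comparison (median −1.09), and their part was not tested.

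In bulk, resistant mice had 2 of 36 genes lower than sensitive mice and 0 higher, against 8.96% and 3.32% of all genes. These were Gzmk (−3.26, SE 0.26, 9.58-fold lower, adjusted p = 3.56e-05), whose levels in resistant bulk, given above, stand against 0.14, −0.02, 0.32 and 0.38 in bulk of sensitive mice, and Cd4 (−1.54, SE 0.31, 2.91-fold lower, adjusted p = 0.00874), whose levels in resistant bulk stand against 1.89, 2.11, 2.82 and 3.13 there. The median was −0.41 over the 36 genes and −0.04 over all genes. These comparisons share the resistant arrays, so they are not separate evidence.

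The interferon-gamma targets, a list of 22 genes of antigen processing, guanylate binding proteins and chemokines, were in part higher in resistant mice. In EC 14 of 21 were higher than in vehicle mice and 0 lower (median 0.84), and 4 of 21 in bulk (median 0.39). Gbp3 gave 1.17 in EC (SE 0.17, adjusted p = 0.000159) and Gbp6 1.73 (SE 0.37, adjusted p = 0.00229). Ifng itself had 1.93, 1.11, 0.19 and −0.30 in EC of resistant mice, against 0.98, 0.41, −1.32 and 0.66 in EC of vehicle mice, and these overlap (difference 0.55, SE 0.62, adjusted p = 0.493).

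Other leukocyte lists moved too: eosinophil markers were lower in EC of resistant mice for 6 of 6 genes and B and plasma cell markers for 4 of 8, where 27.1% of all genes were lower. Of the eosinophil markers, Epx and Il5ra were well above background on 0 of 4 resistant EC arrays, and Prg2 and Ccr3 on 2 of 4, so the size of their differences is not given. Of 21 further T cell receptor signalling genes 5 were lower, led by the adaptor Sh2d2a (−2.90, SE 0.31), with 0 higher, a share near that background. The macrophage markers averaged 4.81 to 7.04 in EC of resistant mice, against 4.52 to 6.13 in EC of vehicle mice. Their part in the results above was not tested.

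**Figure D5:**
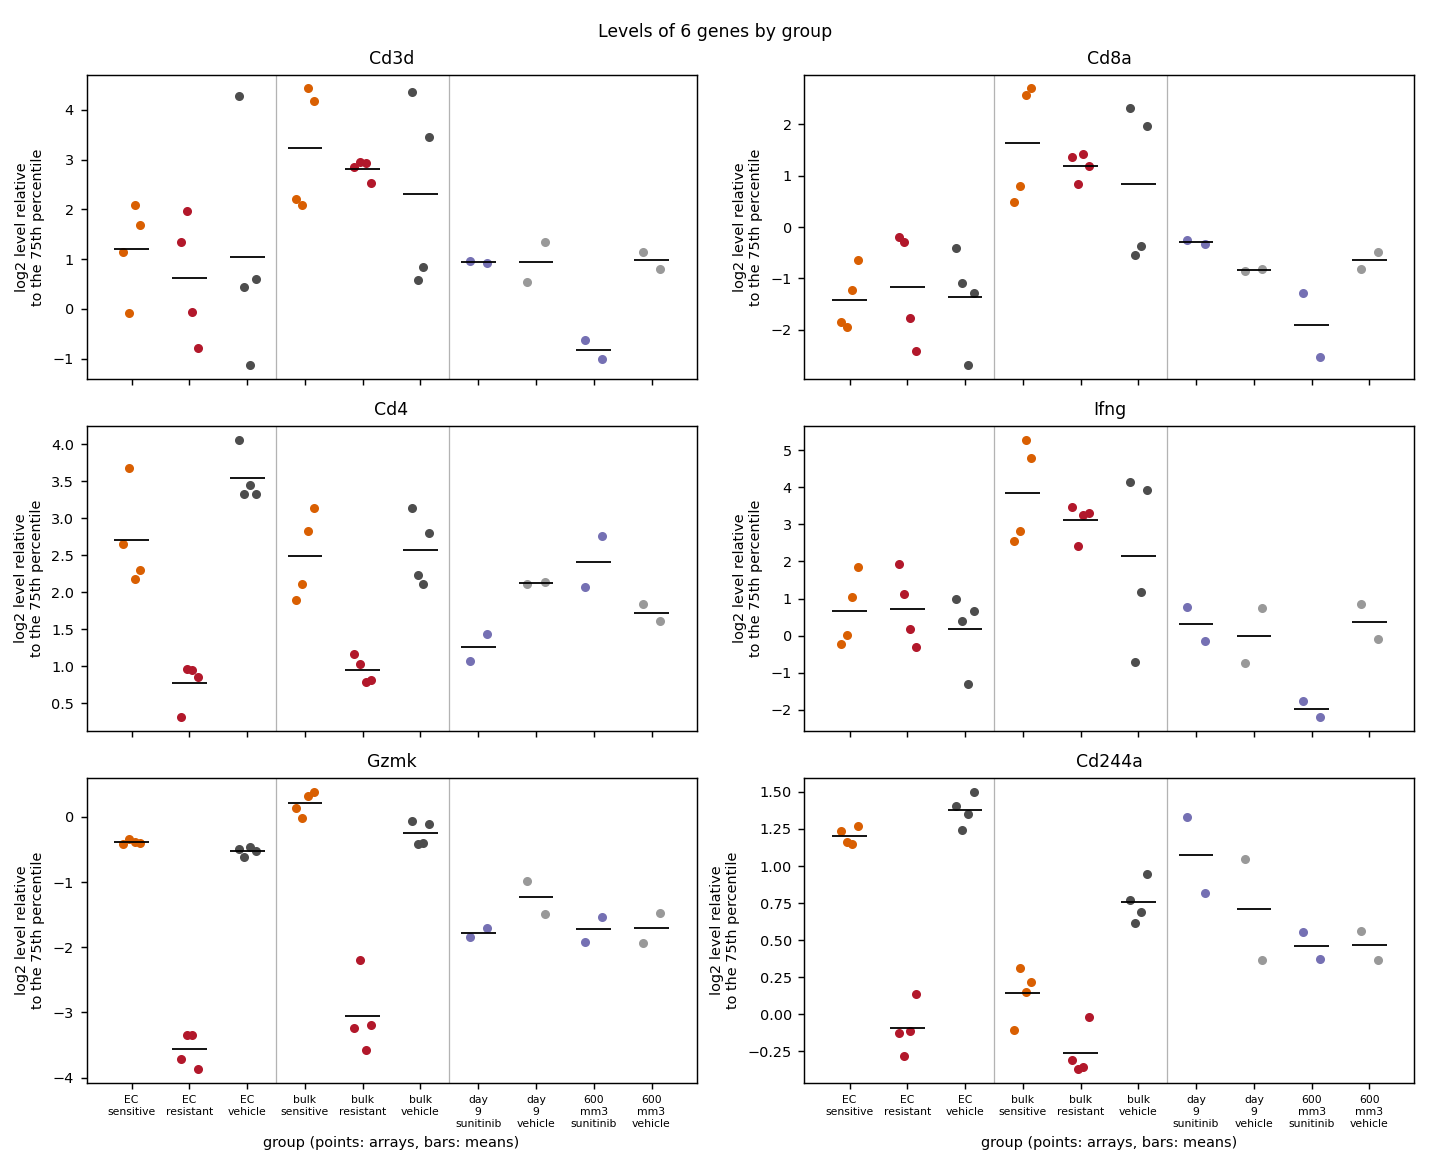
Log2 levels of 6 genes on each array (points) with group means (bars), relative to the array's 75th percentile. Gzmk is lowest on the 8 resistant arrays, Cd4 is lower on them than on any other array at 1300 mm3, group means of Cd8a and Ifng are lower in EC than in bulk, and Cd3d and Ifng are lower in the 2 sunitinib tumours of 600 mm3 than on any other bulk array.

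Sensitive mice were set against vehicle mice to see what sunitinib left in tumours that had first responded. At 1300 mm3, 0 of 37 genes passed in EC and 0 of 36 in bulk, and 0 of 17946 and 0 of 16969 genes passed in all (0% of genes in either direction, limma). At unadjusted p under 0.05 there were 1 of these genes and 980 genes in EC, and 2 of these genes and 1101 genes in bulk. The median difference was 0.20 in EC, against 0.02 over all genes, and 0.82 in bulk, against 0.07.

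The intervals are wide, because mice of one group differ. Cd3d in bulk had 2.21, 2.10, 4.43 and 4.18 in sensitive mice, against 4.36, 0.58, 0.84 and 3.46 in vehicle mice, a difference of 0.92 with a 95% interval of −0.96 to 2.80. Ifng in bulk had 2.55, 2.83, 5.27 and 4.79 in sensitive mice, against 4.16, −0.70, 1.18 and 3.93 in vehicle mice, a difference of 1.72 with an interval of −0.54 to 3.98. In both cases 2 vehicle mice lie among the sensitive mice and 2 below them. The lower ones include vehicle mouse 3, the bulk array with the raised endothelial markers. The genes with unadjusted p under 0.05 were Cd4 in EC (−0.84, SE 0.31) and, in bulk, Cd244a (−0.61, SE 0.15) and Gata3 (0.64, SE 0.27).

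The early effect of the drug was measured in bulk of smaller tumours, with 2 mice a group. At day 9, 0 of 36 genes and 0 of 17443 genes passed (0% of genes), with 1 of these genes, Cd4 at −0.87, and 1387 genes at unadjusted p under 0.05. The median was 0.17 over the 36 genes. Cd3d had 0.97 and 0.92 in sunitinib mice, against 0.54 and 1.35 in vehicle mice.

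At 600 mm3 most of the genes were lower in the 2 sunitinib mice than in the 2 vehicle mice: the median was −1.32 over the 36 genes and 0.06 over all genes. Both sunitinib mice lay below both vehicle mice for 28 of 36 genes, where 23.3% of all genes did so. Since most of these genes move together from mouse to mouse, counts of genes here are not separate observations and rest on 2 mice a group. With 2 mice a group, 2 of 36 genes passed, both lower, where 1.15% of 17443 genes were called lower and 0.516% higher, and 24 of 36 had an unadjusted p under 0.05, as had 2561 of all genes. Cd3d had −0.62 and −1.02 in sunitinib mice, against 1.14 and 0.81 in vehicle mice (difference −1.79, SE 0.32, 3.46-fold lower, adjusted p = 0.0488). Klrk1 had −5.91 and −6.62 in sunitinib mice, the second not well above background, against −2.17 and −3.21 in vehicle mice (difference −3.58, SE 0.58, adjusted p = 0.0403). The Klrk1 difference rests in part on that faint spot, so no fold is given, and with normexp, another background correction, it was −1.64. Both calls are near the threshold, and the count was 0 to 8 when single arrays were left out.

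Further genes at 600 mm3 did not pass, with large differences. Xcl1 had −4.06 and −4.15 in sunitinib mice, against −0.54 and −0.68 in vehicle mice (difference −3.50, SE 0.70, adjusted p = 0.0648). Ifng had −1.78 and −2.20 in sunitinib mice, against 0.85 and −0.10 in vehicle mice (difference −2.36, SE 0.57, adjusted p = 0.112). Cd3g gave −2.04 and Lat −1.54 (adjusted p = 0.0611 and 0.0524). Cd226 was well above background on neither sunitinib array of 600 mm3 and did not pass (adjusted p = 0.115), so no fold is given. Cd4 and Eomes were higher in both sunitinib mice than in both vehicle mice without passing (0.69 and 0.70).

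Other lists moved with them at 600 mm3. Endothelial markers were lower for 4 of 8 genes (median −2.08; list means −1.05 and −0.88 in sunitinib mice, against 0.63 and 1.05 in vehicle mice). Macrophage markers were lower for 1 of 7 (median −1.57) and dendritic cell markers for 1 of 6 (median −2.11). Of the interferon-gamma targets 3 of 21 were lower and 0 higher (median −1.51), all 3 of MHC class II: H2-Ab1 (−1.51, SE 0.20), H2-Eb1 (−1.66, SE 0.23) and its chaperone Cd74 (−1.60, SE 0.24). Their part in the lower T and NK cell genes was not tested.

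Whether the drug effect differed between 600 mm3 and day 9 was tested after the data had been seen: 0 of 36 genes passed, with 21 at unadjusted p under 0.05 (2694 of all genes), a median of −1.64, and 0.0344% of genes called lower and 0.132% higher. The mean of both effects called 0 of 36 genes and 0 of 17443 genes, with 10 and 1750 at unadjusted p under 0.05 (0% of genes called, limma).

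Bulk tumours of 1300 mm3 were set against the smaller ones, the mean of day 9 and 600 mm3, in each treatment. The sizes lie on different slides, and the titles of the smaller tumours name no fraction. Size therefore cannot be told apart from the slide, nor from a split with the beads at 1300 mm3 only. In sunitinib mice labelled sensitive, 23 of 36 genes were higher at 1300 mm3 and 1 was lower, where 9.12% of 18565 genes were called higher and 7.73% lower, with a median of 2.63 against 0.14. In vehicle mice 2 were higher and 0 lower, against 4.47% and 4.64% of genes, with a median of 1.26 against 0.05. Without bulk vehicle mouse 3 the vehicle count was 14. The difference between the treatments, also tested after the data had been seen, called 0 of 36 genes and 0 of 18565 (median 1.44; 1 and 586 at unadjusted p under 0.05), so the larger count in sunitinib mice is not shown to be a larger change.

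Ifng gave the largest difference among the genes called in sunitinib mice, with 2.55, 2.83, 5.27 and 4.79 at 1300 mm3, against 0.76 and −0.14 at day 9 and −1.78 and −2.20 at 600 mm3. The sizes do not overlap, and the difference was 4.70 (SE 0.92, 26-fold higher, adjusted p = 0.00457). The receptor Cd5 was 13.9-fold higher, Lat 12.8-fold, Cd6 11.4-fold, the adhesion receptor Cd2 10.6-fold, Tbx21 10.5-fold, Zap70 10.4-fold and Xcl1 10.2-fold. Prf1 (2.18), Nkg7 (2.73) and Fasl (2.54) were higher, while Gzmb (2.58, adjusted p = 0.0808) and Gzma (1.16, adjusted p = 0.255) did not pass. Cd244a was the gene that was lower, 1.54-fold (adjusted p = 0.0248).

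In vehicle mice the 2 genes higher at 1300 mm3 were Cd27 (1.97, SE 0.54, 3.91-fold, adjusted p = 0.0383) and Gzmk (1.22, SE 0.25, 2.33-fold, adjusted p = 0.0123). The Cd27 call was lost in 12 of 28 refits and the Gzmk call in 2 of 28. Gzmk had −0.06, −0.42, −0.41 and −0.11 in vehicle bulk at 1300 mm3, against −0.99 and −1.48 at day 9 and −1.94 and −1.47 at 600 mm3. The sizes do not overlap for Gzmk.

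Further T cell genes were also higher in the large sunitinib tumours: 13 of 21 receptor signalling genes, with 1 lower, and 8 of 13 naive and memory T cell genes, with 0 lower. The costimulator Icos gave 4.45 (SE 0.93), the activation marker Cd69 4.31 (SE 0.72) and Tnf, the tumour necrosis factor that many leukocytes make, 6.95 (SE 1.18). Of the interferon-gamma targets 1 of 21 was higher and 1 lower (median 0.30), although Ifng was higher. Neutrophil markers were higher for 4 of 8 genes (median 2.63) and endothelial markers lower for 3 of 8 (median −1.98), and the part of these shifts was not tested.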

How the data were processed

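RNA of 32 tumour samples was measured on one-colour Agilent mouse arrays. Per the file headers, the deposited scanner files hold intensity values made by Feature Extraction 10.7.3.1, background subtracted within each array. The submitters' processing notes name version 9.1. The authors' deposited table, used as an alternative, also holds intensity values, normalized by a method not given in the sources used here.

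Of 55681 probes, 26582 were named through RefSeq accessions, for 20145 genes, and 9 of the 37 genes have several probes. The log2 values were computed here from the deposited processed signal, minus each array's 75th percentile. A gene was tested where its probe was well above background on at least 4 arrays of a fit, or 2 where smaller tumours entered, which leaves Cd40lg out of the bulk fits (36 genes). Calls are from limma 3.58.1 (R 4.3.3, data.table, version 1.17.8) with Benjamini-Hochberg adjustment over all genes tested and a threshold of 0.05. Residual degrees of freedom were 9 for EC, 9 for bulk at 1300 mm3, 9 for EC minus bulk within mice, 4 for smaller tumours and 13 for all bulk arrays. SE is limma's moderated one. Figures were drawn in Python 3.11.15 (matplotlib 3.10.9, numpy 2.4.6, pandas 2.3.3). The number of arrays limits the precision. Replicates are mice numbered in the labels.

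EC and bulk arrays of one number come from one tumour by their titles, and their deviations from the group means correlated at 0.18 to 0.48 in 11 pairs and at −0.03 in resistant mouse 4. The alternatives were normexp on median signals, quantile normalization, another percentile, the authors' values, 2 other filters, means over probes, the replicate block, the slide and leaving out each mouse. The genes and lists were chosen with earlier results of these data known.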

Additional observations from a re-analysis of the deposited data

Results flagged for a closer look

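Within groups of 4 arrays, 15 of 222 combinations of gene and group had 1 array far from the other 3, where chance gives about 1 in 20. EC vehicle mouse 2 was the high array for 6 of them: Cd3e (4.26), Cd247 (−0.84), Cd4 (4.05), Cd5 (3.44), Cd27 (0.0634) and Lat (2.62). Bulk resistant mouse 2, the array with the raised detection floor, was high for Cd40lg (−2.69), Ncr1 (0.0517) and Eomes (−0.61) and low for Gata3 (3.30). EC sensitive mouse 4 was high for Klrg1 (1.56) and Prf1 (3.68). In EC of resistant mouse 1 Cd4 was low (0.31), in bulk of resistant mouse 1 Cd6 was high (2.39), and in bulk of resistant mouse 4 Cd244a was high (−0.02).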

How the results depend on the processing

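Most results held under the alternatives, where each passed test of a single gene is counted once for every refit. Under another setting 1020 refits kept the call and 116 lost it, and with 1 mouse left out 1674 kept it and 166 lost it. Most of the passed tests are of EC against bulk. In EC of resistant against vehicle mice, Cd27 lost its call in 4 of 19 refits and Klrb1c in 3 of 19. Gzmk, Cd4 and Cd244a lost theirs there in 0 of 20. Among tests that had passed, the sign turned for Cd40lg, a gene near background: 0.41 with normexp and 0.31 with quantile normalization in EC of resistant against vehicle mice. Signs of tests that had not passed are not counted here, beyond Cd40lg for EC minus bulk in resistant mice, with 0.59 with quantile normalization and between −0.465 and 1.07 with 1 mouse left out (1.07 without mouse 2).

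The number of genes called moved by over 1.5 times in these cases, and the cause was not tested unless the setting itself keeps fewer genes. For EC of resistant against vehicle mice it was 3 when a gene had to be well above background on every array. For bulk of resistant mice it was 1 against sensitive mice with means over probes. The replicate block gave 1 against vehicle mice and 1 against sensitive mice in bulk, and at 1300 mm3 against smaller tumours 1 in vehicle and 15 in sunitinib mice. Mouse numbers shared across treatments do not pair the mice (correlations of −0.35 to 0.31), so these are only a check. For EC minus bulk, dropping the pairing (no replicate block) gave 10 in sensitive, 12 in resistant and 3 in vehicle mice. In vehicle mice it was 18 with normexp, 16 with quantile normalization, 6 with the other percentile, 18 with the authors' values, 6 with no filter and 18 with detection on every array. At 600 mm3 it was 4 with normexp, 1 with quantile normalization, 0 with the other percentile, 4 with the authors' values, 0 with no filter and 4 with detection on every array. For 1300 mm3 against smaller tumours in vehicle mice it was 4 with normexp, 0 with quantile normalization, 1 with the authors' values, 5 with detection on every array and 1 with means over probes.

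With 1 mouse left out at a time the counts ranged as follows. In EC, resistant against vehicle gave 5 to 6, and resistant against sensitive 5 to 10 (10 without vehicle mouse 2). In bulk these gave 3 to 3 and 2 to 2. EC against bulk gave 29 to 32 over all mice, 16 to 25 in sensitive, 17 (without mouse 4) to 30 in resistant and 2 (without mouse 5) to 18 (without mouse 3) in vehicle mice. The 600 mm3 effect gave 0 (without any 1 of the mice of 600 mm3) to 8 (without day 9 vehicle mouse 1 or 2), and its difference from day 9 0 to 2. Large against smaller tumours gave 0 to 14 in vehicle and 15 to 30 in sunitinib mice. The other comparisons gave 0 to 0. Where a group was left with 1 mouse, it is assumed to vary like the other groups.

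The slide as a block could not be fitted for resistance or size, since each slide holds whole groups. Within the resistant slide alone, EC minus bulk called 29 genes. Faint genes (Cd40lg, Cd226, Klrb1c, Cd247, Ncr1) are limited by signal over background, most of all on the resistant EC arrays.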
